A study of Mus musculus with 7 samples.

Results

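The cells described here are the CD8 T cells that the authors' deposited annotation of a mouse glioma calls proliferating. They were taken by that annotation alone and number 475 of the 28644 cells in the data, under 1 of 23 annotations. Viable cells with CD45, CD11b or both on their surface were sorted from the tumour-bearing hemisphere of 7 mice, and they were sequenced from the 5' end, with 1 library of 1410 to 5856 cells per mouse. All 7 mice carried Siglece alleles flanked by loxP sites, received CT-2A glioma cells in the brain at 8 to 12 weeks of age, and were given 2.5 mg tamoxifen per injection from day 7 onwards. The 4 knockout (KO) mice also carried Sall1CreERT2, a tamoxifen-dependent Cre recombinase driven by the Sall1 locus, which among brain immune cells is active in microglia. The 3 wild-type (WT) mice lacked Cre. Each mouse is 1 replicate, and the labels give neither its sex nor the day on which it was killed. By Xist and Y-linked UMIs, KO 1, KO 2 and WT 3 were female and the other mice male.

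CD8 T cells kill tumour cells with perforin and granzymes after their receptor meets antigen. Under antigen that persists, as in a tumour, they enter a state called exhaustion, in which inhibitory receptors such as PD-1 are kept high. The state is maintained by a less differentiated precursor pool that keeps the transcription factor TCF1, encoded by Tcf7, and divides to give the more differentiated cells. A dividing T cell copies its genome in S phase and builds the spindle in G2 and M phase, and each step has its own set of transcripts. The comparisons below therefore set the proliferating cells against the 5076 cells annotated as precursor-exhausted and the 1549 annotated as exhausted, and leave the cell cycle genes to one side. They ask what else differed in the dividing cells.

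The proliferating cells numbered 46, 96, 78 and 137 in KO mice 1 to 4 and 14, 20 and 84 in WT mice 1 to 3. Their median depth was 10372 unique molecular identifiers (UMIs, each standing for 1 captured transcript) per cell, against 5568 in precursor-exhausted and 4966 in exhausted cells. Within a mouse the median was 1.27 to 2.13 times that of precursor-exhausted and 1.85 to 2.79 times that of exhausted cells, higher in 7 of 7 mice. With every cell thinned to 3000 UMIs, the median number of detected genes was 1400.5 to 1455 per mouse in proliferating cells. It was 1309.5 to 1370 in precursor-exhausted and 1332.5 to 1393 in exhausted cells, so the proliferating cells detected more genes at equal depth as well. A barcode was present in more than 1 library for 460 barcodes, and 10 of the 475 cells carried such a barcode. Siglece itself gave 2, 1, 0 and 0 UMIs in the microglia of KO mice 1 to 4 and 20, 19 and 7 in those of WT mice 1 to 3. The microglia numbered 30, 21, 13 and 49 in KO and 113, 92 and 96 in WT mice, and scaled to their total UMIs the levels were 10.7, 19.6, 0 and 0 CPM against 36.1, 45.9 and 18.6 CPM, so KO 2 lay above WT 3. There were 0 to 3 Siglece UMIs per mouse in the proliferating CD8 cells.

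Of the 3 markers of the label, Mki67, a nuclear protein of cycling cells, set the cells apart. After thinning to 3000 UMIs, 86.3% of the 454 proliferating cells deep enough had a Mki67 UMI (95% exact binomial interval 82.8 to 89.4%), against 12.3% of precursor-exhausted and 8.90% of exhausted cells. Gzmb, which encodes granzyme B, did not. A Gzmb UMI was seen in 47.6% of proliferating, 51.3% of precursor-exhausted and 49.6% of exhausted cells. Cd8a, the CD8 alpha chain, was seen less often, in 75.3% (71.1 to 79.2%) against 90.7% and 91.2%. These intervals cover counting error only. Without thinning, the Cd8a shares were 81.7%, 94.3% and 94.3%. In B cells (840 cells, median depth 7302 UMIs), which lack both CD8 and granzyme B, the thinned shares were 1.40% for Cd8a and 2.09% for Gzmb.

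Cells with no CD8 UMI were more frequent under this annotation, and they were spread unevenly over the mice. Neither Cd8a nor Cd8b1 had a UMI in 74 of the 475 cells, or 15.6% (12.4 to 19.2%), against 3.09% of precursor-exhausted and 2.91% of exhausted cells. In the KO mice these cells were 20 of 46, 17 of 96, 0 of 78 and 11 of 137. In the WT mice they were 4 of 14, 8 of 20 and 14 of 84. Of the 74 cells, 37 had a UMI of Ncr1 or Klrb1c, receptors that define natural killer (NK) cells, 10 had one of Trdc, the constant chain of the gamma-delta receptor, 19 had one of Cd4, and 19 had none of these 4 genes. Cells with no CD8 UMI and a UMI of Ncr1 or Klrb1c were 7.79% of proliferating, 0.236% of precursor-exhausted and 0.194% of exhausted cells. The level of Ncr1 was 142 CPM (UMIs scaled to the cells' total) in the 74 cells, 2.86 CPM in the other 401 and 366 CPM in the 909 cells annotated as NK cells. The level of Klrb1c was 183, 6.39 and 375 CPM in the same order, and that of Cd3e, a chain of the T cell receptor complex, was 428, 1089 and 98.4 CPM. Median depth was 10200 UMIs in the 74 cells and 10469 in the other 401. A cell with no UMI of a gene can still hold its transcript. Some gene differences below, such as those of Lag3, Tigit and Tox, are given for the whole annotation only. Others are given again for the 363 cells that had a CD8 and a CD3 UMI and none of Ncr1, Klrb1c, Trdc and Cd4. These are called the CD8-restricted cells, and cells of the same kind were taken from the reference annotation. With at least 20 such cells required per mouse, 5 mice remained. WT 2 had 10 such cells and WT 1 had 9, so values of the CD8-restricted cells also lack WT 2, and the effects of both changes on a value cannot be told apart unless the value without WT 2 alone is given.

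**Figure D1:**
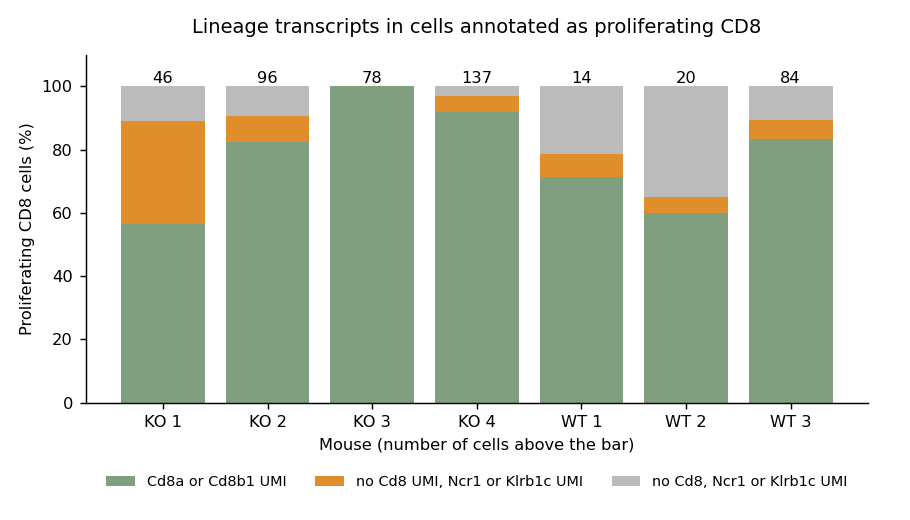
Bars give, for each mouse, the percentage of its proliferating CD8 cells with a Cd8a or Cd8b1 UMI, with no CD8 UMI and an Ncr1 or Klrb1c UMI, or with none of them. The share without a CD8 UMI ran from 0 of 78 cells in KO 3 to 20 of 46 in KO 1.

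Markers of other cell types differed between mice in these cells. The summed level of the 9 NK genes listed ran from 299 to 2861 CPM over the 7 mice, against 344 to 2345 CPM in precursor-exhausted and 339 to 2392 CPM in exhausted cells, with no gene at 0. Within mice, the 6 of these that passed the filter on low counts had median differences of 0.64 from precursor-exhausted cells (1 counted as higher by the rule given below, as 6.04% of all genes were) and 0.73 from exhausted cells (2 counted, as 9.17% of all genes were). In CD8-restricted cells, which by their choice hold no Ncr1 or Klrb1c UMI, 5 and 4 passed and the medians were -0.44 and -0.45. That of the 14 monocyte and macrophage genes ran from 479 to 2209 CPM, against 750 to 2257 and 781 to 2911 CPM, also with none at 0. Within mice, the 10 of these genes that passed the filter had a median difference of -0.78 from precursor-exhausted cells (2 counted as lower, as 2.77% of all genes were), and the 9 that passed had one of -1.08 from exhausted cells (5 counted, as 4.07% of all genes were). The 11 dendritic cell genes summed to 171 to 786 CPM, against 346 to 1219 and 483 to 1498 CPM, with Cd209a at 0. The 4 that passed, Cd74, H2-Aa, H2-Ab1 and H2-Eb1 of antigen presentation, had medians of -0.83 (0 counted) and -1.14 (4 counted as lower) beside the same shares of all genes. The part of such transcripts in the differences below was not tested. The 7 B cell genes summed to 15.9 to 108 CPM with Ms4a1 and Pax5 at 0, and the 6 neutrophil genes to at most 8.41 CPM with Retnlg, Cxcr2 and Ly6g at 0.

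The deposited phase calls put every one of the 475 cells in S or G2M, 138 in S and 337 in G2M. The G2M share was 63.0%, 79.2%, 69.2% and 69.3% in KO mice 1 to 4 and 78.6%, 65.0% and 70.2% in WT mice 1 to 3. Precursor-exhausted cells were 66.0% G1, 27.7% S and 6.28% G2M, and exhausted cells 74.9%, 21.1% and 4.00%. Proliferating CD4 T cells, 414 cells under an annotation that also holds regulatory T cells (Tregs), were 12.6% G1, 39.6% S and 47.8% G2M. After thinning, 33.3% of them had a UMI of Foxp3, the Treg factor.

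Differences between annotations are given as log2 CPM of the proliferating cells minus that of the reference cells of the same mouse, summed over cells, as mean ± SD over mice. A gene was counted as different when the mean was 1 or more in size, a factor of 2 on the plain scale, and every mouse had its sign. No test was made, because the annotations rest on the expression of the same cells. WT 1, with 14 proliferating cells, was left out, so n = 6 unless stated. The 2 comparisons share the proliferating cells.

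The cell cycle genes give the scale of what the annotation holds. Mki67 ran from 793 to 1102 CPM over the 6 mice (median 876) in proliferating cells, from 56.6 to 111 (76.7) in precursor-exhausted and from 13.4 to 61.0 (31.6) in exhausted cells, with no overlap. Its difference was 3.49 ± 0.46 against precursor-exhausted and 4.87 ± 0.77 against exhausted cells. Of the 56 G2M genes listed, 52 passed the filter on low counts and 49 were counted as higher than in precursor-exhausted cells, where 6.04% of all 8665 genes were. Against exhausted cells 51 of 52 were, where 9.17% of all 7417 genes were. Of the 44 S phase genes, 31 of 42 and 35 of 40 that passed were counted as higher. These counts restate the label.

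Promoters of these genes share short motifs that are textbook binding letters for cell cycle regulators: CCAAT for NF-Y, TTTGAA (the cell cycle homology region, CHR) for the DREAM and B-MYB complexes, and TTTGGCGC for E2F factors. In the 150 bases before the start, searched on both strands in the RefSeq promoters of GRCm38.p6, CCAAT was present in 31 of the 42 G2M genes counted as higher than in precursor-exhausted cells that had an entry (73.8%), and TTTGAA in 15 (35.7%). Among all 27025 promoters the shares were 27.7% and 10.5%, and among the 6708 promoters of genes in these comparisons 32.6% and 7.07%. Of the 22 such S phase genes, 15 had CCAAT (68.2%), 3 had TTTGAA (13.6%) and 4 had TTTGGCGC (18.2%, against 0.307% of all promoters and 0.730% of those of the genes compared). Of 165 genes counted as higher outside the cell cycle lists, 47.3% had CCAAT and 11.5% TTTGAA. For 177 counted as lower, the shares were 31.1% and 6.21%. A match of letters is no evidence of binding. The promoters of 3 genes show the motifs, in capitals on either strand: Cdc20, an activator of the anaphase-promoting complex (chr4:118437344-118437493, minus strand), Top2a, the topoisomerase that untangles replicated chromosomes (chr11:99024190-99024339, minus strand), and Mcm5, a subunit of the replicative helicase (chr8:75109359-75109508, plus strand).
Cdc20: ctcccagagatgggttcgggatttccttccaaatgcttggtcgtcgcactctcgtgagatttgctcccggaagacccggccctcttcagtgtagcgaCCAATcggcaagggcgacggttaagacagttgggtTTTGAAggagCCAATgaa
Top2a: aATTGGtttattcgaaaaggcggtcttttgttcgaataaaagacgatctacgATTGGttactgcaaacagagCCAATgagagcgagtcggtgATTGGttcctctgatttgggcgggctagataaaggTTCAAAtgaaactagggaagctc
Mcm5: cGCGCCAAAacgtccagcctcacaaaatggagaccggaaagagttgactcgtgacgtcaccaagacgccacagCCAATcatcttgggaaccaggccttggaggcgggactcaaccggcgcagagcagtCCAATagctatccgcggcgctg
Cdc20 differed by 2.87 ± 0.41, Top2a by 3.49 ± 0.43 and Mcm5 by 1.66 ± 0.77 against precursor-exhausted cells, and by 4.49 ± 0.85, 3.96 ± 0.33 and 3.14 ± 1.10 against exhausted cells.

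Outside the cell cycle lists, 217 of 8306 genes were counted as higher (2.61%) and 238 as lower (2.87%) than in precursor-exhausted cells. Against exhausted cells 375 of 7076 were counted as higher (5.3%) and 300 as lower (4.24%). In the CD8-restricted cells the counts were 193 (2.45%) and 213 (2.7%) of 7892, and 314 (4.58%) and 294 (4.29%) of 6856. Some of the genes counted as higher are known for a part in division although the lists do not hold them. Spag5 (a spindle protein), Gen1 (a resolvase of recombination intermediates), Hrob (a DNA repair factor), Aunip, Prr11, Spdl1, Nsl1, Kntc1, Poc1a, Fignl1 and Rcc1 all differed by 2 or more from both references.

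Gene models in a histone cluster were also among them, and Gm20628 had the largest mean difference of the genes named here outside the cell cycle lists. It ran from 169 to 313 CPM (median 205) in proliferating cells, a median of 5.90 in precursor-exhausted and from 0 to 16.9 in exhausted cells, with no overlap, and differed by 4.82 ± 0.33 and 5.10 ± 1.38. It lies on the minus strand of chromosome 3 from 96267075 to 96270289 in GRCm38, antisense to Hist2h3b, Gm42743 and Hist2h2bb. Gm20634 (plus strand, chromosome 3, 96245554 to 96248509), which overlaps Hist2h2aa1 and Hist2h3c1 on the same strand, differed by 4.11 ± 0.34 and 4.27 ± 0.25. Its neighbours Gm20632 and Gm20633 differed by 2.62 ± 0.69 and 2.49 ± 0.73 against precursor-exhausted cells. Histone transcripts accumulate in S phase. Reads of Gm20634 and of the histone genes on its strand cannot be told apart here, so its level is uncertain. Gm20628, Gm20632 and Gm20633 overlap histone genes on the opposite strand only. The strand of the reads was not checked here, so their levels are to be read with care too.

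Ccl5 was the cytotoxic or chemokine gene with the largest fall. Ccl5, a chemokine that CD8 T cells store and release, ran from 603 to 1499 CPM (median 856) in proliferating cells, from 2526 to 5969 (3922) in precursor-exhausted and from 3253 to 10372 (5227) in exhausted cells. Every proliferating value lay below every value of both references. Its difference was -2.01 ± 0.31 and -2.57 ± 0.61, and -2.16 ± 0.36 and -2.69 ± 0.41 in the CD8-restricted cells of 5 mice. Of the 23 cytotoxic and effector genes listed, 20 passed the filter. Against precursor-exhausted cells 3 of 20 were counted as lower (2.77% of all genes were) and 1 as higher (6.04%), with a median of -0.25 beside -0.08 over all genes. In CD8-restricted cells 5 of 20 were counted as lower (2.6%) and 0 as higher (6.19%). Against exhausted cells 1 of 20 was counted as lower (4.07%) and 2 as higher (9.17%). The other lowered genes were Ccl4, a chemokine released on activation, at -1.22 ± 0.49, and Ifng, which encodes interferon gamma, at -1.22 ± 0.31.

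Ifng and Ccl4 were counted as lower against precursor-exhausted cells and not against exhausted cells, in which both were themselves lower than in precursor-exhausted cells (by 1.49 ± 0.44 and 1.43 ± 0.73). Ifng ran from 187 to 449 CPM (median 225) in proliferating cells and from 474 to 814 (567) in precursor-exhausted cells, with no overlap, but from 134 to 286 (216) in exhausted cells, where the ranges overlapped and the difference was 0.28 ± 0.43. For Ccl4 the medians were 427, 1048 and 357 CPM, and the difference from exhausted cells was 0.22 ± 0.55. Ccl3, a related chemokine, differed by -1.04 ± 1.26 (lower in 5 of 6 mice) and 1.06 ± 1.14 (higher in 6 of 6). Its second value rested in part on WT 2, at 3.12, beside 0.02 to 1.56 in the other mice. Gzmb was not counted as different in either comparison. It ran from 537 to 2066 CPM (median 1002) in proliferating cells, within the spread of both references, and differed by -0.02 ± 0.39 and -0.13 ± 0.51. Prf1, perforin, differed by -0.69 ± 0.30 (lower in 6 of 6 mice) and 0.39 ± 1.52. The second value rested on WT 2, at 3.40, and was -0.21 without it. In the CD8-restricted cells Prf1 was counted as lower than in precursor-exhausted cells, at -1.02 ± 0.59 over 5 mice, as 2.6% of all genes were there. Nkg7, a granule membrane protein, differed by -0.67 ± 0.08 and -0.66 ± 0.16, below the size counted.

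Gzmc, which encodes granzyme C, was counted as higher than in precursor-exhausted cells at 2.38 ± 1.34, but its level varied by mouse. It was 1804, 153, 9.54 and 296 CPM in KO mice 1 to 4 and 240 and 567 CPM in WT mice 2 and 3. In precursor-exhausted cells of the same mice it was 378, 64.7, 3.86 and 10.4 and then 28.6 and 136 CPM. In the CD8-restricted cells it was 121, 31.0, 9.55 and 90.4 CPM in the KO mice and 394 CPM in WT 3, and the difference was 0.72 ± 1.69, no longer counted. KO 1, the mouse with the highest Gzmc, also had the highest share of cells without CD8 and with an NK transcript (15 of 46). The summed NK genes were highest in WT 3 (2861 CPM) and next in KO 1 (2265 CPM).

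**Figure D2:**
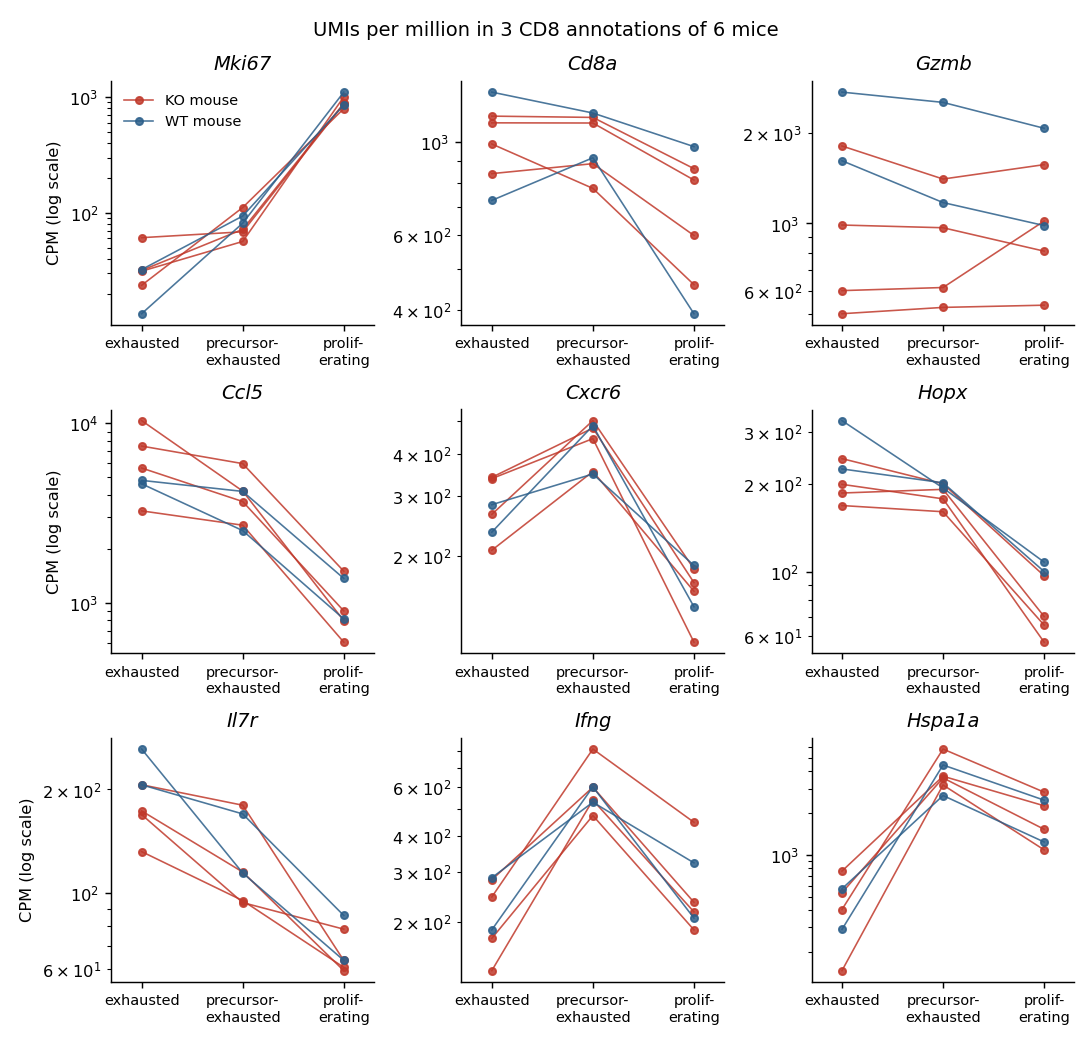
Each panel gives 1 gene's level in CPM (log axis) in exhausted, precursor-exhausted and proliferating CD8 cells, with a line per mouse for 4 KO and 2 WT mice. Mki67 is higher and Ccl5, Cxcr6, Hopx and Il7r are lower in the proliferating cells of every mouse than in both references, Gzmb overlaps, and Ifng and Hspa1a lie below precursor-exhausted cells in each mouse.

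Of 16 inhibitory receptor and exhaustion genes listed, 15 passed, with 1 counted as lower (2.77% of all genes were) and a median of -0.59 against precursor-exhausted cells, and 4 (4.07%) and -0.78 against exhausted cells. In CD8-restricted cells 0 and 1 of 15 were counted as lower (2.6% and 4.13% of all genes were). Vsir, which encodes the checkpoint VISTA, was counted as lower in both comparisons, at -1.15 ± 0.39 and -1.19 ± 0.61, and fell short of the size counted in CD8-restricted cells at -0.92 ± 0.41 and -0.89 ± 0.37. Pdcd1, the gene for PD-1, ran from 191 to 717 CPM (median 567) in proliferating cells, from 509 to 939 (707) in precursor-exhausted and from 787 to 1264 (1055) in exhausted cells. It lay below all exhausted values and overlapped the precursor-exhausted ones, with differences of -0.57 ± 0.46 and -1.09 ± 0.59. In CD8-restricted cells these were -0.15 ± 0.27 and -0.66 ± 0.45, and in the whole annotation without WT 2 the difference from exhausted cells was -0.89, so the Pdcd1 fall was not counted in either case. Ctla4, a CD28 competitor, differed by -0.22 ± 0.39 and -1.18 ± 0.61 (-0.87 ± 0.60 in CD8-restricted cells against exhausted cells), and Nr4a2, a nuclear receptor induced by antigen signals, by -0.26 ± 0.24 and -1.29 ± 0.39. Lag3 differed by -0.90 ± 0.30 and -0.83 ± 0.63, Havcr2 (TIM-3) by -0.84 ± 0.50 and -0.81 ± 0.53, and Tigit by -0.75 ± 0.21 and -0.91 ± 0.30. Tox, a transcription factor of exhaustion, differed by -0.56 ± 0.24 and -0.39 ± 0.39. These values compare with -0.60 ± 0.12 and -0.65 ± 0.16 for Cd3e and -0.65 ± 0.33 and -0.63 ± 0.29 for Cd8a. The 9 T cell identity genes had medians of -0.60 and -0.58 with none counted (2.77% and 4.07% of all genes were counted as lower). In CD8-restricted cells the medians were -0.38 and -0.33. Those cells by their choice hold CD8 and CD3 UMIs, which come from genes of this list, so these medians depend in part on the choice.

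Genes of the precursor and memory state that were counted as higher in the whole annotation did not reach the filter in the CD8-restricted cells. Of 16 listed, 12 passed against precursor-exhausted cells, and 2 of them, Tcf7 included, were counted as higher (6.04% of all genes were). Against exhausted cells 10 passed, with 0 counted as higher and Il7r as lower (4.07% of all genes were). Tcf7 was 40.4, 18.0, 7.42 and 22.5 CPM in KO mice 1 to 4 and 83.3 and 12.2 CPM in WT mice 2 and 3. The precursor-exhausted cells of the same mice had 12.2, 4.96, 4.83 and 9.34 and then 17.6 and 2.86 CPM, and the difference was 1.50 ± 0.59 with ranges that overlapped. In CD8-restricted cells Tcf7 was 0, 4.13, 1.19, 11.5 and 2.19 CPM in KO 1 to 4 and WT 3, too low to pass the filter. Klra7 (an Ly49 receptor of NK cells) at 3.27 ± 1.12 likewise passed the filter in the whole annotation alone. Eomes, a T-box factor that NK cells also express, went from 0.76 ± 0.73 to -0.32 ± 0.72 on restriction. Over the members that passed, the list's median went from 0.35 to -0.63 with 8 of 16 passing. Il7r, the interleukin-7 receptor of resting memory cells, lay below both references without overlap. It ran from 59.4 to 86.0 CPM (median 63.6) in proliferating, 93.8 to 180 (115) in precursor-exhausted and 132 to 262 (190) in exhausted cells, and differed by -0.89 ± 0.42 and -1.44 ± 0.37. In CD8-restricted cells the differences were -0.77 ± 0.77 and -1.13 ± 0.54. There the ranges overlapped, and KO 1 turned, with 134 CPM in proliferating and 96.1 CPM in precursor-exhausted cells. Tcf7, the defining gene of precursors, did not set the precursor-exhausted annotation above the exhausted one. Its level there differed by -0.80 ± 0.87 from exhausted cells and was higher in 1 of 6 mice.

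Of 17 migration and residency genes, 15 passed against precursor-exhausted cells, with Cxcr6 counted as lower (2.77% of all genes were). Against exhausted cells 13 passed with none counted, where 4.07% of all genes were counted as lower. Cxcr6, a chemokine receptor of T cells that stay in tissue, ran from 112 to 188 CPM (median 162) in proliferating, 349 to 501 (460) in precursor-exhausted and 208 to 341 (274) in exhausted cells, below both references without overlap, and differed by -1.50 ± 0.39 and -0.81 ± 0.43. Among CD8-restricted cells the differences were -1.14 ± 0.21 and -0.51 ± 0.17. Hopx, a small homeodomain protein of differentiated effector cells, ran from 57.3 to 108 CPM (83.5), against 160 to 202 (192) and 168 to 329 (212), and differed by -1.24 ± 0.31 and -1.43 ± 0.22.

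Some cytokine receptors and costimulatory genes were counted as lower against exhausted cells. All 17 listed passed. None was counted against precursor-exhausted cells (median -0.47), where 2.77% of all genes were counted as lower. Against exhausted cells 5 were counted as lower (median -0.53, where 4.07% of all genes were): Il7r, Icos (a CD28 relative) at -1.57 ± 0.33, Il21r at -1.31 ± 0.52, Cd27 at -1.03 ± 0.34, and Il12rb2 at -1.14 ± 1.22. Il12rb2 and Cd27 fell short of the size counted in CD8-restricted cells, at -0.63 ± 0.22 and -0.87 ± 0.27, and Il12rb2 rested on WT 2, the mouse with 20 cells, at -3.57. Icos ran from 124 to 214 CPM (median 157) in proliferating cells and from 326 to 642 (483) in exhausted cells, without overlap. Nr4a3, a nuclear receptor induced by antigen receptor signals, ran from 56.7 to 115 CPM (66.4), against 215 to 433 (273) in exhausted cells and 47.4 to 100 (73.2) in precursor-exhausted cells, and differed by -1.93 ± 0.31 and 0.03 ± 0.39. Fosl2, an AP-1 subunit, differed by -2.02 ± 0.48 and -0.23 ± 0.24 in the same order. For both genes the precursor-exhausted reference itself differed from the exhausted one, by -1.98 ± 0.52 and -1.82 ± 0.37.

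Hspa1a and Hspa1b were counted as lower than in precursor-exhausted and higher than in exhausted cells. Hspa1a, an inducible HSP70 gene, ran from 1088 to 2836 CPM (median 1897) in proliferating, 2682 to 5802 (3644) in precursor-exhausted and 147 to 765 (469) in exhausted cells. The differences were -1.12 ± 0.31 and 2.16 ± 0.85, with overlap against precursor-exhausted cells and none against exhausted ones. Its neighbour Hspa1b differed by -1.21 ± 0.47 and 2.50 ± 0.43, and Dnajb1, an HSP40 co-chaperone, by -1.60 ± 0.40 and 0.95 ± 0.51, the second not counted. All 16 immediate early and heat shock genes listed passed. Against precursor-exhausted cells 6 were counted as lower (2.77% of all genes were), with a median of -0.82. Against exhausted cells 2 were counted as higher and 1 as lower (9.17% and 4.07%), with a median of -0.25.

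Of 36 genes that answer interferon, 29 passed against precursor-exhausted cells (4 counted as lower, where 2.77% of all genes were, median -0.41) and 28 against exhausted cells (4 as lower, where 4.07% were, median -0.65). In CD8-restricted cells 2 of 26 and 3 of 26 were counted as lower (2.6% and 4.13% of all genes were). Ifi213, of the cytosolic DNA sensor family, differed by -1.40 ± 0.47 and -1.91 ± 0.80, Ifit3 by -1.16 ± 0.55 and -1.84 ± 1.03 and Ifit1 by -1.76 ± 1.18 and -1.94 ± 1.62. Ifit3 and Ifit1 belong to a family that acts against viral RNA. In CD8-restricted cells Ifit1 did not reach the filter and Ifit3 differed by -0.81 ± 0.60 and -1.61 ± 0.97. Irf7, a factor that amplifies the response, was counted in the second comparison alone, at -1.02 ± 0.64. There KO 1 stood at -2.20 and the other mice at -1.20 to -0.41.

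Of 22 nucleotide and one-carbon genes, 22 passed and 3 were counted as higher than in precursor-exhausted cells (6.04% of all genes were, median 0.51). Against exhausted cells 20 passed and 12 were counted as higher (9.17%, median 1.14). In CD8-restricted cells 3 of 22 and 6 of 19 were counted, where 6.19% and 8.57% of all genes were. Mthfd2, a mitochondrial folate enzyme, ran from 49.0 to 89.2 CPM (median 80.4), above 27.5 to 45.0 (35.6) in precursor-exhausted and 20.2 to 43.9 (32.0) in exhausted cells, and differed by 1.04 ± 0.22 and 1.19 ± 0.24. Dctpp1, which clears nucleotides unfit for DNA, differed by 1.47 ± 0.42 and 2.46 ± 0.33, and Shmt1, the cytosolic serine hydroxymethyltransferase, by 1.47 ± 0.85 and 2.54 ± 1.47. Against exhausted cells Impdh2 of guanine nucleotide synthesis at 1.16 ± 0.31 and Paics of purine synthesis at 1.06 ± 0.28 were also counted. Slc43a3, a nucleobase transporter, differed by 1.52 ± 0.39 and 2.43 ± 0.51.

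Some glycolysis genes were counted as higher than in exhausted cells. Of 16 listed, 14 passed in each comparison. None was counted against precursor-exhausted cells (6.04% of all genes were counted as higher, median 0.24). Tpi1, Pgk1 and Ldha were counted as higher than in exhausted cells (9.17% of all genes were, median 0.62). The difference between the 2 comparisons was not tested. In CD8-restricted cells 2 of 14 were counted against exhausted cells, where 8.57% of all genes were. Tpi1, triose phosphate isomerase, ran from 426 to 579 CPM (median 501) in proliferating, 209 to 527 (388) in precursor-exhausted and 108 to 267 (192) in exhausted cells, and differed by 0.47 ± 0.32 and 1.50 ± 0.47. Ldha differed by 0.37 ± 0.24 and 1.01 ± 0.23. Myc, the growth regulator, ran from 74.2 to 152 CPM (117), beside 113 to 181 (129) and 23.1 to 62.4 (48.6), and differed by -0.29 ± 0.43 and 1.31 ± 0.43, above exhausted cells alone. Of the 22 MYC and ribosome biogenesis genes, Ran, a nuclear transport GTPase that also acts on the spindle, was counted in both comparisons, at 1.30 ± 0.25 and 2.02 ± 0.21. Against precursor-exhausted cells Ran was 1 of 22 counted as higher, where 6.04% of all genes were, and Eif4ebp1, an inhibitor of translation initiation, was 1 counted as lower (2.77%), at -1.31 ± 1.82 (-0.49 and not counted in CD8-restricted cells). Against exhausted cells Myc, Nop58 and Ran were counted as higher, 3 of 21, where 9.17% of all genes were. The list's medians were 0.15 and 0.61. The 74 oxidative phosphorylation genes had medians of 0.21 and 0.37 with 0 and 1 counted. Of all genes, 6.04% and 9.17% were counted as higher and 2.77% and 4.07% as lower.

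**Figure D3:**
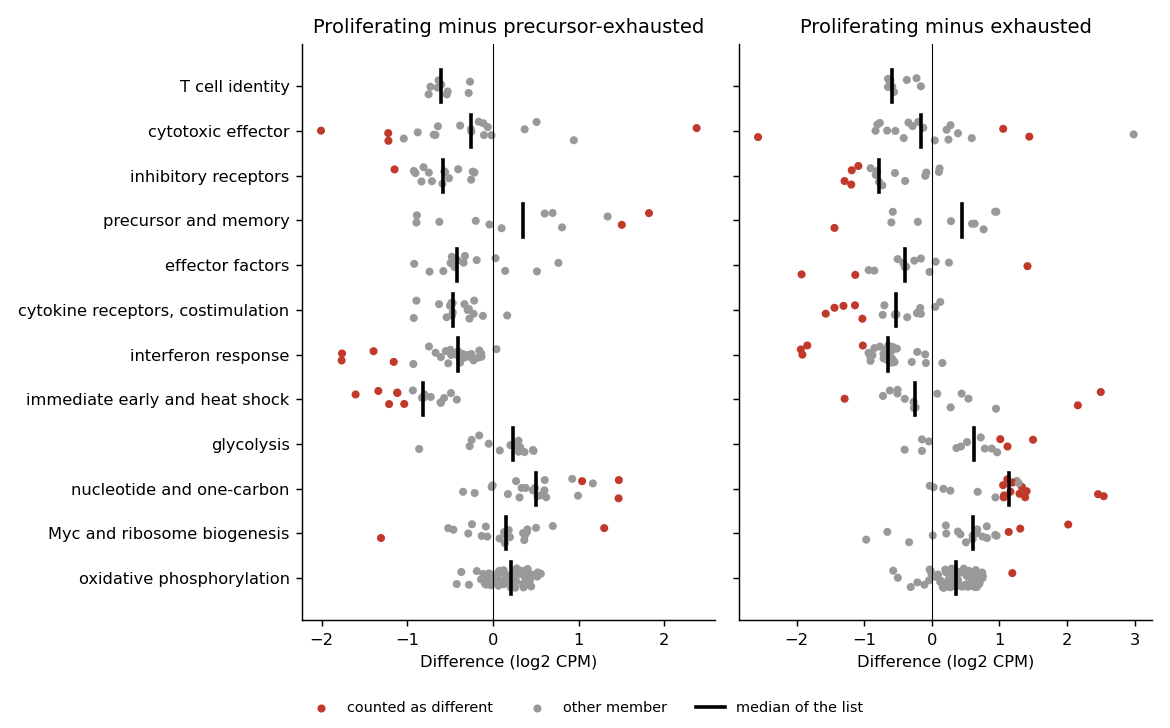
Points are the list members that passed the filter, placed by their mean difference in log2 CPM over 6 mice, with genes counted as different in red and the list's median as a bar. The nucleotide and one-carbon list has 12 of 20 members counted as higher than in exhausted cells and the inhibitory receptor medians are -0.59 and -0.78.

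The genes named for the largest falls included several that were counted as lower in both comparisons. Kdm5b, a demethylase of histone H3 lysine 4, ran from 2.05 to 14.7 CPM (median 2.99) in proliferating, 30.8 to 42.4 (31.8) in precursor-exhausted and 40.3 to 54.2 (47.1) in exhausted cells, below both without overlap. It differed by -2.80 ± 0.97 and -2.96 ± 0.91. Tcp11l2 had the largest mean fall among them, from a median of 24.3 CPM in precursor-exhausted and 43.4 CPM in exhausted cells to 1.96 CPM, at -3.60 ± 1.37 and -3.78 ± 0.84. Phf1, a Polycomb partner, differed by -2.28 ± 1.80 and -2.57 ± 1.65. Both values rested in part on WT 2, at -5.73 and -5.75, beside -2.44 to -0.90 and -2.67 to -1.09 in the other mice. Mxd4 and Ccnd2 were not among the largest falls but were also counted as lower in both comparisons. Mxd4, a MYC antagonist, differed by -1.25 ± 0.62 and -1.97 ± 0.53, and Ccnd2 (cyclin D2, of G1 phase) by -1.05 ± 0.48 and -1.13 ± 0.41. Against precursor-exhausted cells Ccnd2 stood at -1.89 in WT 2 and at -1.28 to -0.53 in the other mice.

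When cells of the same deposited phase were compared, in KO 2, KO 3, KO 4 and WT 3, fewer genes were tested. Among S phase cells, 95 of 7045 genes outside the cell cycle lists were counted as higher (1.35%) and 240 as lower (3.41%) than in precursor-exhausted cells. Among G2M cells the counts were 93 of 6331 (1.47%) and 42 (0.663%). Against S phase exhausted cells they were 250 of 4335 (5.77%) and 271 (6.25%). Ccl5 differed by -1.70 ± 0.39 in S and -1.24 ± 0.42 in G2M, Cxcr6 by -1.34 ± 0.16 and -1.03 ± 0.43, and Kdm5b by -3.20 ± 0.85 and -2.28 ± 0.40. Ifng differed by -1.63 ± 0.57 in S and -0.51 ± 0.53 in G2M, and Cd8a by -0.50 ± 0.09 and 0.01 ± 0.12. Mki67 was still higher in cells of the same phase, by 2.96 ± 0.46 and 1.27 ± 0.25, so equal phase calls did not make the cells equal in cycling. Against S phase exhausted cells, Ccl5 differed by -2.50 ± 0.34, Hopx by -1.14 ± 0.41, Icos by -1.25 ± 0.53, Tpi1 by 1.84 ± 0.44 and Hspa1a by 2.09 ± 1.06. G2M exhausted cells reached 20 in 1 mouse only, too few for this comparison.

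Cycling cells of other lineages give a measure of what accompanies division in general. Proliferating CD4 T cells were set against the other CD4 cells, and proliferating macrophages against the other macrophages, each in 6 mice (KO 3 was left out for macrophages, and WT 1 for CD4 cells). Tregs were among both the proliferating and the other CD4 cells. Of genes outside the lists with 20 CPM or more, 155 counted as higher than in precursor-exhausted CD8 cells had a value in both lineages, and 134 of them were higher by 0.5 or more in both. For those counted as lower it was 52 of 95. Against exhausted cells it was 218 of 344 higher and 112 of 234 lower genes. Of all 5822 genes with the same minimum and a value in both lineages, 6.06% were higher and 6.06% lower by 0.5 or more in both. In the comparison with exhausted cells these shares were 5.88% and 6.26% of 5988. Ccl5 differed by -2.08 ± 0.53 in CD4 cells and -1.38 ± 0.71 in macrophages, Il7r by -1.55 ± 0.29 and -1.92 ± 1.05, Kdm5b by -2.22 ± 0.47 and -2.85 ± 1.37, and Mthfd2 by 1.04 ± 0.20 and 1.30 ± 0.41. Cxcr6 and Ifng differed by -1.89 ± 0.51 and -1.89 ± 0.98 in CD4 cells. Low Ccl5 and high Mthfd2 were thus found in all 3 cycling populations, in CD8 cells against both references. Low Il7r was counted in CD8 cells against exhausted cells alone. Against precursor-exhausted cells it fell short of the size counted, and KO 1 turned in CD8-restricted cells.

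Some genes counted in CD8 cells differed by less than 0.5 or in the opposite direction in CD4 cells. Among genes with 50 CPM or more that kept their size in CD8-restricted cells, there were 2 against precursor-exhausted cells, Hopx and Tent5c. Hopx differed by 0.19 ± 0.58 in CD4 cells but by -2.09 ± 0.71 in macrophages, and Tent5c by -0.30 ± 0.30 and -0.22 ± 0.43. Against exhausted cells there were 31, of which 14 were higher and 17 lower in the proliferating CD8 cells. The share of all genes that meet the same CD4 condition was not computed, so these counts stand without it. Most of the 31 had the same sign in CD4 cells, some near the limit of 0.5, such as Il21r at -0.47 and Xcl1 at 0.36. The higher ones included Hspa1a, at 2.16 in CD8 and -1.26 ± 0.31 in CD4 cells (against precursor-exhausted cells it was -1.12 ± 0.31 in CD8 cells, in the direction of CD4 cells), Hspa1b, Hsph1, Nrgn (neurogranin, a calmodulin-binding protein) at 1.60 ± 0.52 and -0.72, and Xcl1. The lower ones included Hopx, Il21r, Foxo1 (a factor of quiescence) at -1.21 ± 0.48 and -0.21, P2ry10 (a lysophospholipid receptor) at -1.65 ± 0.37 and -0.23, Tnfrsf1b (TNF receptor 2) at -1.64 ± 0.30 and -0.39, and Crem (a cyclic AMP responsive factor) at -1.49 ± 0.30 and -0.34. In proliferating macrophages Foxo1 differed by -1.39 ± 1.75, P2ry10 by -1.45 ± 1.83, Tnfrsf1b by -0.74 ± 0.24 and Crem by -1.35 ± 0.91, all in the direction of CD8 cells. Against precursor-exhausted CD8 cells, single mice ran from -0.59 to 0.22 for Foxo1, -0.52 to 0.93 for P2ry10 and -0.37 to 0.11 for Crem. They ran from -0.77 to -0.29 for Tnfrsf1b and -0.87 to -0.10 for Il21r. For Nrgn the range was -0.17 to 1.34 and for Xcl1 -0.24 to 1.78, so both had mixed signs. Hspa1b and Hsph1 were lower there in every mouse, at -1.94 to -0.72 and -1.47 to -0.65. The difference between the lineages was not tested, and the reference cells differ: the CD4 reference pools several states.

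**Figure D4:**
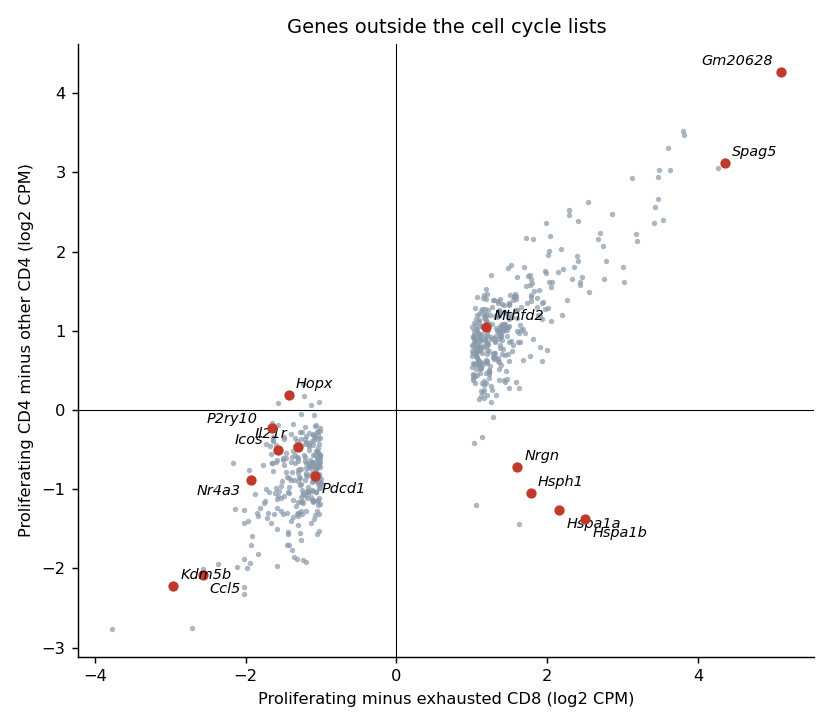
Each of 620 points is a gene outside the cell cycle lists that was counted as different between proliferating and exhausted CD8 cells, with that difference on the horizontal axis and the difference of proliferating from other CD4 cells on the vertical axis, both in log2 CPM. The heat shock genes Hspa1a, Hspa1b and Hsph1 and Nrgn lie above 0 for CD8 and below 0 for CD4, and Ccl5 and Kdm5b lie below 0 for both.

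The most abundant Trbv gene of the proliferating cells was also that of the precursor-exhausted cells in 6 of 7 mice. In KO 4 it was Trbv26, with 40.2% of Trbv UMIs in proliferating, 57.3% in precursor-exhausted and 58.4% in exhausted cells, and in WT 3 it was Trbv15, with 49.8%, 57.0% and 62.4%. In KO 1 it was Trbv16 (41.0%, 35.8% and 38.2%), which was also the most abundant in KO 3. WT 2 was the exception, with Trbv1 at 19.1% of 162.5 UMIs, a gene with 0 UMIs in its exhausted cells. These are gene totals, not clones, and closely similar Trbv genes can share reads.

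The design asks whether deletion of Siglece with the microglial Cre changed these cells. The proliferating share of all CD8 T cells was 14.4%, 5.72%, 2.63% and 6.07% in KO mice 1 to 4 and 11.1%, 3.98% and 11.3% in WT mice 1 to 3. Both groups held high and low mice, and they overlapped. The means were 7.20 ± 5.03% (SD, n = 4) and 8.79 ± 4.16% (SD, n = 3), a difference of -1.59 percentage points within the spread between mice (two-sided exact permutation test, p = 0.657, adjusted p = 0.943 over 5 shares). Of all cells, the share was 2.26 ± 0.73% in KO and 1.02 ± 0.96% in WT mice, a difference of 1.25 points (exact permutation p = 0.143, adjusted p = 0.714), with WT 3 at 2.13% inside the KO range of 1.64 to 3.26%. Of all T cells the difference was 0.09 points (exact permutation p = 0.943), of proliferating, precursor-exhausted and exhausted cells together it was -8.79 points (exact permutation p = 0.343, adjusted p = 0.857; -1.89 points without WT 1, exact permutation p = 0.867), and in the G2M share of 6 mice it was 2.58 points (exact permutation p = 0.8). With 7 mice the smallest p the exact test can give is 0.0286, and with 6 mice 0.0667, so the G2M share could not have passed 0.05. In these shares, more proliferating cells and fewer cells of the other annotations cannot be told apart.

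**Figure D5:**
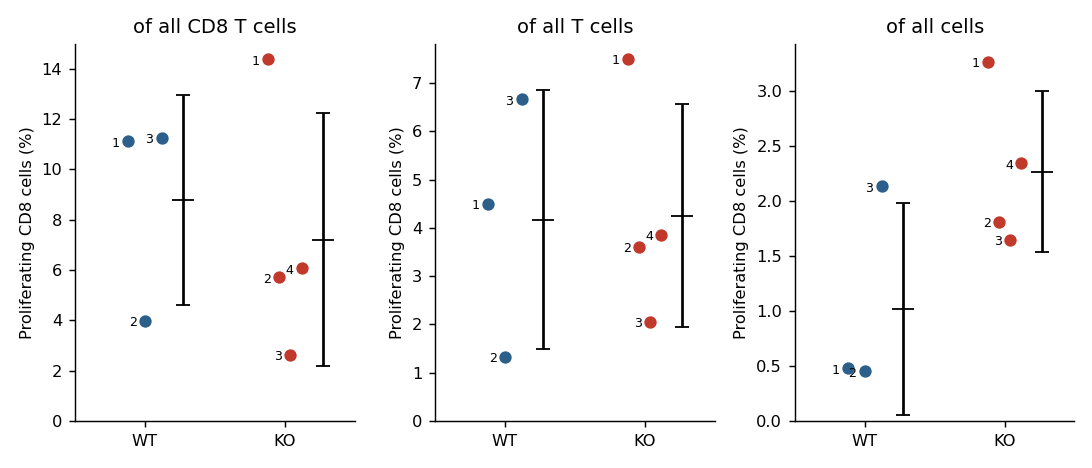
Points give the percentage of proliferating CD8 cells per mouse, numbered within its genotype, among CD8 T cells, T cells and all cells, and bars give the mean and SD of 3 WT and 4 KO mice. The ranges of the genotypes overlap in all 3 panels.

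No gene passed the genotype test in proliferating cells. In edgeR's quasi-likelihood test of 4 KO against 2 WT mice, 0 of 8268 genes had an adjusted p under 0.05 (0%), with 303 at an unadjusted p under 0.05, and DESeq2 gave 0 with 104. Leaving out KO 4, WT 2 or WT 3 gave 2, 1 and 3 calls, and the CD8-restricted cells, with WT 3 as the lone WT mouse, gave 3 (Hacd2, Cdc20b and Trav9-4). The same test gave 0 of 10825 genes in precursor-exhausted cells (7 mice, 415 at an unadjusted p under 0.05) and 1 of 7403 (0.0135%) in exhausted cells, Gm6969, a predicted gene, at -2.94 ± 0.34 (SE, edgeR adjusted p = 0.00133), with 358 at an unadjusted p under 0.05. On simulated data the proliferating fit recovered 96% of genes changed by 2 on the log2 scale and 44% of those changed by 1. The simulation changed only genes with many UMIs and gave all genes the same spread between mice. Differences of the smaller size could thus be missed. Recovery in genes with fewer UMIs or a wider spread was not tested, so larger differences could be missed there too. Mki67 was 793, 872, 1002 and 881 CPM in KO mice and 1102 and 852 CPM in the WT mice tested, and its log2 difference was -0.17 ± 0.14 (SE). For Gzmb it was -0.68 ± 0.57, for Ifng -0.06 ± 0.37, for Pdcd1 0.28 ± 0.58 and for Ccl5 -0.22 ± 0.40 (SE, KO minus WT).

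The genes with the smallest p-values that separated the genotypes are named for their values only. Itih5, of the inter-alpha-trypsin inhibitor heavy chain family, was 33.3, 30.4, 40.3 and 25.3 CPM in KO mice and 9.80 and 9.35 CPM in WT mice (log2 difference 1.70 ± 0.39 SE, edgeR adjusted p = 1.00). WT 1, left out of the fit for its 14 cells, had 22.6 CPM, between the groups. Arid5b, a DNA-binding protein, was 41.6, 49.8, 91.2 and 63.5 CPM against 14.7 and 25.2 CPM, with WT 1 at 45.1 CPM, inside the KO range. Tnfrsf4, the costimulatory receptor OX40, was 53.5, 29.0, 44.5 and 40.3 CPM against 118 and 71.0 CPM, with WT 1 at 22.6 CPM, on the KO side. Trav9-4, a receptor variable gene, had the smallest p (log2 difference -4.79 ± 0.85 SE, edgeR adjusted p = 0.519). It was 0 to 3.75 CPM in KO mice, 14.7 and 39.0 CPM in the WT mice tested and 0 in WT 1.

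Of 36 interferon genes listed, 28 were tested between genotypes in proliferating cells and 21 were lower in KO mice, with a median of -0.17 beside 0.00 over all genes. In 5 of them, Isg15 and Irf7 included, every KO value lay below every WT value (17.9%, where 7% of all genes did). Isg15, a ubiquitin-like protein, was 48.7, 67.7, 57.3 and 62.8 CPM in KO mice and 152 and 71.0 CPM in WT mice, and 355 CPM in WT 1 (log2 difference -0.76 ± 0.27 SE, edgeR adjusted p = 1.00). In precursor-exhausted cells 28 of 34 interferon genes were lower in KO mice, 2 without overlap (5.88%, where 2.39% of all genes were). In exhausted cells it was 23 of 30, with 5 (16.7%, where 8.20% were). In proliferating cells all 9 killer lectin-like receptor genes tested were higher in KO mice, and 3 of them did not overlap (33.3%, where 8.28% of all genes did). In precursor-exhausted cells 7 of 7 were higher, 2 without overlap (28.6%, where 4.32% of all genes were). In exhausted cells it was 5 of 6, with 0 (0%, where 9.20% were). Among proliferating cells the share without CD8 and with an NK transcript also differed by mouse, at 32.6%, 8.33%, 0% and 5.11% in KO and 7.14%, 5.00% and 5.95% in WT mice, and its part in the lectin genes was not tested.

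Whether the genotype difference itself depended on the annotation was tested with a term for each mouse. Against precursor-exhausted cells 1 of 9846 genes passed (0.0102%), and against exhausted cells 0 of 8918, with 344 and 357 at an unadjusted p under 0.05. The gene was Igkv6-17, an immunoglobulin light chain variable gene, with a term of -4.12 ± 0.62 (SE, edgeR adjusted p = 0.0479). Its UMIs were 3923 in the precursor-exhausted cells of KO 4 and 110 in those of WT 2, at most 1 in the other mice, and 20 and 11 in the proliferating cells of the same mice. The UMIs thus came from KO 4 and WT 2. No gene passed without KO 2, KO 3, KO 4 or WT 2, or in the CD8-restricted cells, which lack WT 2.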

How the data were processed

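Single-cell 5' libraries of 7 mice (4 KO, 3 WT) were used as the authors deposited them. Reads were aligned to mm10 with STAR 2.7.10a (STARsolo) and checked with FastQC 0.11.5, per the submitters' processing notes. The authors deposited the result as a matrix of estimated counts of UMIs for 55491 gene rows, and 7.51% of its values are not whole. The authors' deposited cell table gives the annotation, the phase call, the count of detected genes and the percent of mitochondrial and ribosomal UMIs. How doublets were treated is not given in the sources used here, and none were removed here.

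UMIs were summed per mouse and annotation and rounded, and sums of under 20 cells were left out. Summed UMIs of the proliferating cells ran from 177221 in WT 1 to 1464599 in KO 4. Annotations were compared within mice as TMM-normalized log2 CPM (prior count 2, genes kept by filterByExpr), without a test. Genotypes were compared with edgeR 4.0.16 (quasi-likelihood, robust, Benjamini-Hochberg threshold 0.05) in R 4.3.3, with DESeq2 1.42.0 as an alternative, and shares with two-sided exact permutation tests (Python 3.11.15, numpy 2.4.6, scipy 1.17.1). Fits were tested on simulated data. Named genes are Cd8a, Mki67, Gzmb and Siglece, the 12 largest differences per direction outside the lists at 20 CPM or more, up to 6 counted members per list, and the 5 smallest genotype p-values per direction without overlap. Other genes named were chosen after their values were seen. The cells and all gene lists were chosen with earlier results of these data known. The CD8-restricted cells, the G2M share and the share among proliferating, precursor-exhausted and exhausted cells were added after seeing the data. Some results are not reported here. Alternatives are given in the closing section.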

Additional observations from a re-analysis of the deposited data

Results flagged for a closer look

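Over 230 sets of mouse values, 18 had a mouse far from the others by Dixon's test at the 95% level, which chance gives in about 1 of 20 sets. Most sets were 6 mouse differences between annotations, and the rest were shares or depths of the KO mice alone. Not every gene named above was among them, and Phf1, in which WT 2 stood far from the other mice, was not. WT 2, with 20 proliferating cells, was that mouse in 11 of the 18. Against precursor-exhausted cells (log2 CPM) WT 2 stood at -1.05 for Tbx21 (others -0.33 to -0.09), -2.79 for Il12rb2, -1.68 for Atic and -0.37 for Serpinb9. KO 2 stood at 5.48 for Klra7, KO 3 at -1.46 for Junb and KO 1 at 2.69 for Top2a. Against exhausted cells WT 2 stood at 3.40 for Prf1 (others -0.75 to 0.20), -3.57 for Il12rb2, -1.53 for Il2ra, 4.11 for Klrb1c, 2.23 for Nop58, -1.43 for Atf3 and 4.81 for Umps. KO 1 stood at 5.83 for Rrm2 and 0.64 for Klrk1, WT 3 at 0.10 for Atic and KO 3 at -2.33 for P2ry10.

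The genotype difference of Igkv6-17 differed between proliferating and precursor-exhausted cells by -4.12 (log2, edgeR interaction term, adjusted p = 0.0479), on UMIs of KO 4 and WT 2.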

How the results depend on the processing

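Of 3989 values of the genes named between annotations under the alternatives, 3824 moved by less than the spread between mice and 164 by more. Reversal was scored only for genes counted as different in the main comparison. It was found for 1 value: Cdc20 against precursor-exhausted cells was -0.0025 with G2M cells alone. Sign changes of genes not counted there, such as Prf1 against exhausted cells with 1 mouse left out, were scored by size alone. Genes counted against precursor-exhausted cells numbered 1223 with no filter on low counts (which adds genes) and 353 in G2M cells. Those higher outside the cell cycle lists numbered 95 in S and 93 in G2M cells. Those lower numbered 623 with no filter, 136 with sums thinned to equal UMIs, 42 in G2M cells and 146 with the edgeR fit with a term per mouse. Against exhausted cells, 623 were higher with no filter. Leaving out 1 mouse gave 711 to 888 genes against precursor-exhausted and 962 to 1105 against exhausted cells. Where the alternative does not itself change the genes or cells tested, the cause was not tested.

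Genotype calls numbered 14 with no filter, 3 in CD8-restricted cells (Hacd2, Cdc20b, Trav9-4) and 0 to 3 with 1 mouse left out: 2 without KO 4, 1 without WT 2 and 3 without WT 3. Without WT 2 or WT 3, and in CD8-restricted cells, which leave WT 3 alone, the lone WT mouse is assumed to vary like the KO mice. Same-numbered mice did not deviate together (correlations -0.01, 0.08 and -0.09), so the numbers give no pairing, and a replicate block called 4 genes (Trbv12-1, Trbv15, Rps3a3, Rps3a2). The interaction with precursor-exhausted cells gave 15 with no filter, 0 in CD8-restricted cells and 0 to 2 with 1 mouse left out, and that with exhausted cells 5, 1 (Ifi27l2a) and 0 to 1. The difference in the share of T cells ran from -1.33 to 1.34 points with 1 mouse left out and reversed without KO 1 (-0.99, exact permutation p = 0.6) or WT 2 (-1.33, exact permutation p = 0.533). The G2M share ran from -0.41 to 5.20 points and reversed without KO 2 (-0.41) or WT 2 (-0.04). With 1 mouse left out, the difference in the share of CD8 T cells ran from -3.99 (without WT 2) to -0.07 points (without KO 3), that among the 3 annotations from -13.2 (without WT 2) to -1.89 points (without WT 1), and that of all cells from 0.91 to 1.80 points. With sex as a term 0 genes were called between genotypes.

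Removing cells with a Cd4 or Foxp3 UMI or with myeloid or B cell UMIs left 12 proliferating cells and was not run. No proliferating cell was in G1, the S or G2M share was 100% in every mouse, and the test in S or G2M cells was the one reported. On simulated data the interaction fit recovered 81% of genes changed by 2 and 6% of those changed by 1 (log2). The fit thus leaves most small interactions undetected, and the cause of the low recovery was not tested.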
